A study of Mus musculus with 12 samples.

Results

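Egr1, Egr2, Egr3, Nr4a1, Nr4a2, Nr4a3, Nab1 and Nab2 were taken from the deposited gene table by an exact match of the symbol. All 8 were among its 35321 genes, and all 8 were among the 21078 genes tested, those above the floor of the table in at least 2 of the 12 libraries. Egr1, Egr2 and Egr3 are zinc finger transcription factors whose genes answer growth factor and serum signals within minutes, through the ERK kinases, serum response factor and its ETS-family partners. Nr4a1, Nr4a2 and Nr4a3 are orphan nuclear receptors of the same early response, driven in many cells by CREB and MEF2. Nab1 and Nab2 bind Egr proteins and repress their activity, and Nab2 is itself known as an Egr target.

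RNA was sequenced from C17.2, an established mouse neural progenitor line (strain label CD1 x C57BL/6), as isolated mitochondria and as nuclei. The baseline groups, at 0 h, represent cells grown in DMEM/F12 with 10% fetal bovine serum. The others were taken 1 h and 2 h after the switch that started neural differentiation, to a medium of Knockout DMEM, GlutaMAX and N2 supplement. That recipe names no serum, and no group at 1 or 2 h kept the old medium, so differentiation, serum removal and medium renewal cannot be told apart. Each of the 6 groups has 2 libraries, which the series calls biological replicates of this 1 line. Whether they came from separate cultures is not given in the sources used here, so p-values measure the spread between these libraries. In bulk RNA, fewer cells of a type and less RNA per cell cannot be told apart.

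Libraries held 4.56 M to 9.25 M reads inside genes, which was 13.9% to 21.88% of the reads they were scaled to. Mitochondria and nuclei name the preparations: mitochondrially encoded transcripts made up 2.28% to 4.41% of the listed FPKM in the former and 1.93% to 3.61% in the latter, so a value in either does not place an RNA in an organelle. The progenitor markers Nes (3535 to 6733 reads) and Vim were high and Pax6 had at most 3 reads, while Col1a1, a mesenchymal marker, had 39421 to 88170 reads and the neuronal markers Dcx and Stmn2 had none. In 4 libraries Rps27, Rpl17 and Gapdh stood apart from the other libraries of 0 and 1 h, by -6.24, -7.02 and -4.57 log2 units. The 4 were replicate 1 of nuclei at 0 h and at 1 h, replicate 2 of mitochondria at 0 h, and replicate 1 of mitochondria at 1 h. Between the same libraries the 8 genes differed by -0.26 to 0.11. The gene annotation names no pseudogene by the symbol of any of them with the ending -ps. Pseudogenes under other names were not searched. Because the median gene moved on the deposited scale (in mitochondria by -0.22 at 1 h and -0.28 at 2 h against baseline, in nuclei by -0.64 and -0.51), changes are log2 fold changes after quantile normalization between libraries, with the limma standard error. A gene is said to rise or fall where limma's Benjamini-Hochberg adjusted p over all tested genes was under 0.05.

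Promoter sequences are shown for 1 Egr gene and 2 Nr4a genes. They are from RefSeq (GRCm38.p6), whose table held 6 of the 8 genes and neither Egr1 nor Egr3. Each stretch gives the 250 bases before a start in the gene's direction. The Egr2 stretch does not stand for Egr1, whose time course is set beside that of Nr4a1 below. Capitals mark matches on either strand to the CArG box, which serum response factor binds, the short cyclic AMP response element TGACG, which CREB binds (CGTCA on the other strand), and the Egr sites GCGTGGGCG and GCGGGGGCG.
Egr2, chr10:67537619-67537868, plus strand: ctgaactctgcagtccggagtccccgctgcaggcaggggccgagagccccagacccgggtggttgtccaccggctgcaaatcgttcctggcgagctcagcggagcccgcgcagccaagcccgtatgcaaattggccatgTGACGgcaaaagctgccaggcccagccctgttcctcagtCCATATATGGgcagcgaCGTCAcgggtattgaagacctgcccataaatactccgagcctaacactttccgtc
Nr4a1, chr15:101266596-101266845, plus strand: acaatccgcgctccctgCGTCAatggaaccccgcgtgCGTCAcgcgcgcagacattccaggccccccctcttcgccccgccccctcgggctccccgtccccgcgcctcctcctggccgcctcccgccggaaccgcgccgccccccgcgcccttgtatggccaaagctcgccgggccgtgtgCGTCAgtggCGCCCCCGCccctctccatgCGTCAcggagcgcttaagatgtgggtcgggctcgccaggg
Nr4a2, chr2:57124004-57124253, minus strand: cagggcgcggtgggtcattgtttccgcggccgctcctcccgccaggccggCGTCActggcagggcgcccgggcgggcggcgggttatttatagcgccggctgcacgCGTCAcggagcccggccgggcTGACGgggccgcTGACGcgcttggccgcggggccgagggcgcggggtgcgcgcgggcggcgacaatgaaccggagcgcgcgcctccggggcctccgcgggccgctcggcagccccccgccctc
The Egr2 stretch, 1 of 5 starts listed, holds a CArG box (CCATATATGG, 72 bases before the start) between 2 short elements. The starts differ: the window from 67535249 holds none of these motifs, and that from 67537316 a CArG box (CCTTTTTTGG) without a short element. The windows from 67537620 and 67537680 overlap the stretch shown and hold the same matches. Of 32851 promoter windows of 300 bases in that table, 1.63% hold a CArG box and 20.8% a short element. The Nr4a1, Nr4a2 and Nr4a3 windows each hold 4 short elements, a number reached or passed by 0.231% of windows, and no CArG box. The Nr4a1 window also holds an Egr site (CGCCCCCGC on the strand shown), and the Nab1 window holds 3 Egr sites, whereas 3.47% of windows hold at least 1 and 0.0365% at least 3. The Nab2 window matched none of these motifs, nor the full element TGACGTCA (1.79% of windows), the ETS site CCGGAAG (8.86%) or the Nr4a site AAAGGTCA (1.51%). The full element contains the short element, and the windows of the 6 genes hold none. A match is a run of letters and was not tied to binding here.

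The first question was which members changed in the mitochondrial preparation within 1 h. Egr1, Egr2 and Egr3 rose, Nab2 fell, and the others did not pass, which makes 3 of 8 higher and 1 of 8 lower. Among all tested genes 2.24% were called higher and 3.74% lower. In nuclei 2 of 8 were higher, Egr1 and Egr2, and none lower, against 1.01% and 0.816% of all tested genes. The median of the 8 log2 fold changes was 0.43 in mitochondria and 0.59 in nuclei, beside 0.0 for all genes in each.

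**Figure D1:**
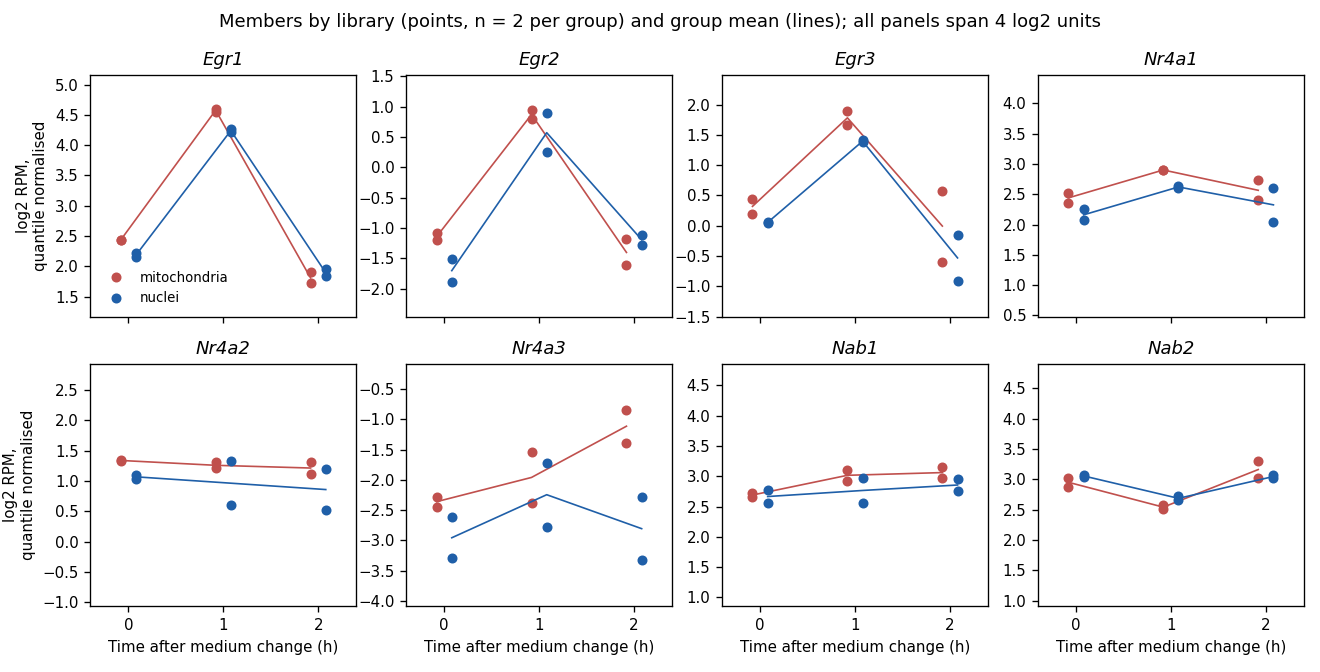
Value of each member (log2 RPM after quantile normalization, vertical axis) in each library against time in hours, with points for the 2 libraries of a group and lines through group means, mitochondria in red and nuclei in blue. Every panel spans the same number of log2 units, so that the 1 h peaks of Egr1, Egr2 and Egr3 can be set against the flatter Nr4a and Nab genes.

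Egr1, the best known of the family (chromosome 18, 34859823 to 34864984, plus strand, GRCm38), had 199 and 202 reads in mitochondria before the switch. It had 733 and 890 reads there at 1 h, then 108 and 120 at 2 h. In nuclei the reads were 223 and 269 at first, 517 and 500 after 1 h and 125 and 144 after 2 h. Every library of 1 h stood above every library of 0 h, and every library of 2 h below, in both preparations. After normalization Egr1 rose at 1 h by 2.14 ± 0.10 in mitochondria (4.39-fold, adjusted p = 4.8e-07, limma) and by 2.05 ± 0.10 in nuclei (4.15-fold, adjusted p = 7.5e-07). Without normalization, on the deposited scale, these were 1.87 and 1.32, so the nuclear fold is over 1.5 times smaller there and remains past the threshold.

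From 1 h to 2 h the Egr1 level fell by 2.76 ± 0.10 in mitochondria (6.79-fold lower, adjusted p = 7.3e-08, limma). The nuclear level fell by 2.35 ± 0.10 (5.08-fold lower, adjusted p = 4.9e-07, limma). Both comparisons share the 1 h libraries with the rise. At 2 h it lay below its own baseline in mitochondria, by -0.63 ± 0.10 (adjusted p = 0.002). In nuclei the difference from baseline was -0.29 ± 0.10 and missed the threshold (adjusted p = 0.086), but passed on the deposited scale (-0.82, adjusted p = 7.7e-05) and with median centring. The order of the 6 group means, on the log2 RPM scale, was mitochondria 1 h (4.57), nuclei 1 h (4.24), mitochondria 0 h (2.44), nuclei 0 h (2.19), nuclei 2 h (1.89) and mitochondria 2 h (1.81). Only the last pair of neighbours overlapped.

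Egr2, known in the hindbrain and in myelinating Schwann cells (chromosome 10, 67535475 to 67542188, plus strand), had far fewer reads. It had 15 and 15 reads in mitochondria at 0 h, then 49 and 68 at 1 h, then 13 and 9 at 2 h. In nuclei the reads were 16 and 23, then 52 and 33, then 16 and 19. The 1 h libraries were the highest in both preparations, without overlap with 0 or 2 h. The rise at 1 h was 2.01 ± 0.33 in mitochondria (4.04-fold, adjusted p = 0.004, limma) and 2.27 ± 0.33 in nuclei (4.84-fold, adjusted p = 0.0052). It was followed by a fall of 2.28 ± 0.33 (adjusted p = 0.0039) and 1.76 ± 0.33 (adjusted p = 0.019). Deposited values put the nuclear rise at 1.38. The nuclear rise was lost without nuclei 0 h replicate 1. The nuclear fall was lost without nuclei 1 h replicate 1 or without either nuclear library of 2 h.

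Egr3, which acts in muscle spindles and T cells (chromosome 14, 70077203 to 70082614, plus strand), had 39 and 49 reads in mitochondria at 0 h, then 93 and 132 at 1 h, then 48 and 20 at 2 h. In nuclei it had 55 and 62 reads, then 73 and 73, then 20 and 36. Its 1 h libraries were highest in both preparations, and the 2 mitochondrial libraries of 2 h straddled those of 0 h after normalization. It rose by 1.46 ± 0.35 at 1 h in mitochondria (2.75-fold, adjusted p = 0.029, limma), while in nuclei the difference was 1.34 ± 0.35 and missed the threshold (adjusted p = 0.082; 0.59 on the deposited scale). The falls from 1 h to 2 h were 1.78 ± 0.35 in mitochondria (adjusted p = 0.017) and 1.92 ± 0.35 in nuclei (adjusted p = 0.015). The mitochondrial rise held in 11 of 20 alternatives, and was lost without any 1 of the 4 mitochondrial libraries of 0 and 1 h or the 2 nuclear libraries of 0 h. The mitochondrial fall was lost without either mitochondrial library of 1 h or replicate 2 of 2 h, and the nuclear fall without either nuclear library of 1 h or replicate 1 of 2 h. Each fall held in 14 of 20 alternatives. The mitochondrial rise and both falls were also lost without the filter on low values, and without variance trend and robust moderation.

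The libraries with low Rps27, Rpl17 and Gapdh lie on both sides of the 0 h to 1 h comparison, so the rise can be read within each side, 1 library against 1 and without a test. Within the 4, Egr1 differed by 2.17 in mitochondria and 2.10 in nuclei, and within the others by 2.10 and 2.00. Egr2 differed by 1.99 and 2.78 within the 4 and by 2.04 and 1.76 within the others. Egr3 differed by 1.23 and 1.32 within the 4, and by 1.69 and 1.36 within the others. In a fit of the 8 other libraries alone none of the 8 members passed in any comparison, where 0 and 1 h keep 1 library each, assumed to vary like those of 2 h. There Egr1 stood at 2.11 ± 0.15 (adjusted p = 0.07) and 2.00 ± 0.15 (adjusted p = 0.19) at 1 h, and 18 of all tested genes passed in mitochondria and none in nuclei. In those 8 libraries Egr2 stood at 2.05 ± 0.40 in mitochondria and 1.78 ± 0.40 in nuclei at 1 h, and Egr3 at 1.69 ± 0.74 and 1.37 ± 0.74.

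Of the orphan nuclear receptors, none passed the threshold in any comparison on the normalized scale. Nr4a1, also called Nur77 (chromosome 15, 101254269 to 101274795, plus strand), had 210 and 192 reads in mitochondria at 0 h, then 220 and 273 at 1 h, then 172 and 213 at 2 h. In nuclei it had 211 and 275, then 167 and 169, then 143 and 223. On the normalized scale both libraries of 1 h stood above both of 0 h in each preparation. The difference at 1 h was 0.46 ± 0.17 in mitochondria (adjusted p = 0.16, limma, 95% interval 0.08 to 0.84) and 0.46 ± 0.17 in nuclei (adjusted p = 0.24, interval 0.08 to 0.84), whereas on the deposited scale it was 0.14 and -0.25, so that the nuclear direction turns with the scaling. These intervals lie below those of Egr1, which ran from 1.92 to 2.35 and from 1.84 to 2.27, although the difference between the genes was not itself tested.

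Nr4a2, or Nurr1, needed for midbrain dopamine neurons (chromosome 2, 57106830 to 57124003, minus strand), had 69 to 92 reads in the mitochondrial libraries and 43 to 121 in the nuclear ones. In nuclei its 2 libraries of 0 h had 109 and 121 reads, those of 1 h 43 and 69, and those of 2 h 52 and 87. After normalization the mitochondrial libraries of 0 h stood just above those of 1 h and 2 h, and the nuclear groups overlapped. The differences at 1 h were -0.08 ± 0.26 in mitochondria (adjusted p = 0.96, limma) and -0.10 ± 0.26 in nuclei (adjusted p = 0.96). The intervals, -0.64 to 0.49 and -0.67 to 0.46, stay within 1 log2 unit of 0. In the deposited values, where the median gene was also lower, the nuclear differences were -0.81 at 1 h (adjusted p = 0.017) and -0.72 at 2 h (adjusted p = 0.035).

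Nr4a3, or Nor1 (chromosome 4, 48045153 to 48086447, plus strand), had 4 to 17 reads in a library, so its depth limits what can be seen. The mitochondrial libraries had 6 and 6 reads at 0 h, then 9 and 6 at 1 h, then 17 and 11 at 2 h. The nuclear ones had 6 and 11, 5 and 9, and 4 and 9. The mitochondrial libraries of 2 h were the highest of all on the normalized scale, with a difference from 0 h of 1.24 ± 0.61 that did not pass (adjusted p = 0.24, limma, interval -0.09 to 2.58). Its 95% intervals at 1 h, -0.94 to 1.74 in mitochondria and -0.62 to 2.05 in nuclei, span both directions and allow a rise of over 1 log2 unit.

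Of the corepressor genes, Nab2 was the one that passed. Nab2 (chromosome 10, 127660918 to 127668568, minus strand) had 302 and 279 reads in mitochondria at 0 h, then 167 and 216 at 1 h, then 267 and 322 at 2 h. In nuclei it had 404 and 478, then 172 and 178, then 273 and 303. In both preparations the 1 h libraries were the lowest, without overlap with either other time, the reverse of the Egr order. The difference at 1 h was -0.41 ± 0.11 in mitochondria (adjusted p = 0.049, limma) and -0.37 ± 0.11 in nuclei, which did not pass (adjusted p = 0.13) and on the deposited scale was -1.06 (adjusted p = 5.4e-05). From 1 h to 2 h it rose by 0.62 ± 0.11 in mitochondria (adjusted p = 0.0097), and by 2 h stood 0.21 ± 0.11 from baseline (adjusted p = 0.26). The nuclear difference from 1 h to 2 h was 0.36 ± 0.11 (adjusted p = 0.12).

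The fall of Nab2 lies at the threshold. It passed in 6 of 20 alternatives, with adjusted p from 0.0012 to 0.36, and was lost without any 1 library other than the 2 of mitochondria at 2 h. The rise to 2 h held in 16 of 20 and was lost without mitochondria 1 h replicate 1 or without mitochondria 2 h replicate 2. Without variance trend and robust moderation, neither the fall nor the rise passed. Nab2 is overlapped on the other strand by Stat6, Nemp1 and the antisense gene Gm16229, and whether the libraries kept strand is not given in the sources used here, so their reads cannot be told apart where they overlap. At 1 h in mitochondria Gm16229 differed by -0.67 ± 0.20 (adjusted p = 0.07, limma), Nemp1 by -0.32 ± 0.15 (adjusted p = 0.29) and Stat6 by -0.12 ± 0.07 (adjusted p = 0.34), and their part in the Nab2 values was not tested. No other member overlaps an annotated gene.

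Nab1 (chromosome 1, 52457294 to 52500679, minus strand), whose promoter window held 3 Egr sites, had 235 and 249 reads in mitochondria at 0 h, then 254 and 278 at 1 h, then 258 and 288 at 2 h. In nuclei it had 296 and 390, then 214 and 160, then 228 and 282. The mitochondrial libraries of 1 h and 2 h all stood above those of 0 h after normalization, and the nuclear ones overlapped. Nab1 passed in no comparison, with 0.32 ± 0.15 at 1 h in mitochondria (adjusted p = 0.26, limma) and 0.10 ± 0.15 in nuclei (adjusted p = 0.88). On the deposited scale the nuclear value was -0.61 (adjusted p = 0.0046), of about the size of the median gene's shift there.

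**Figure D2:**
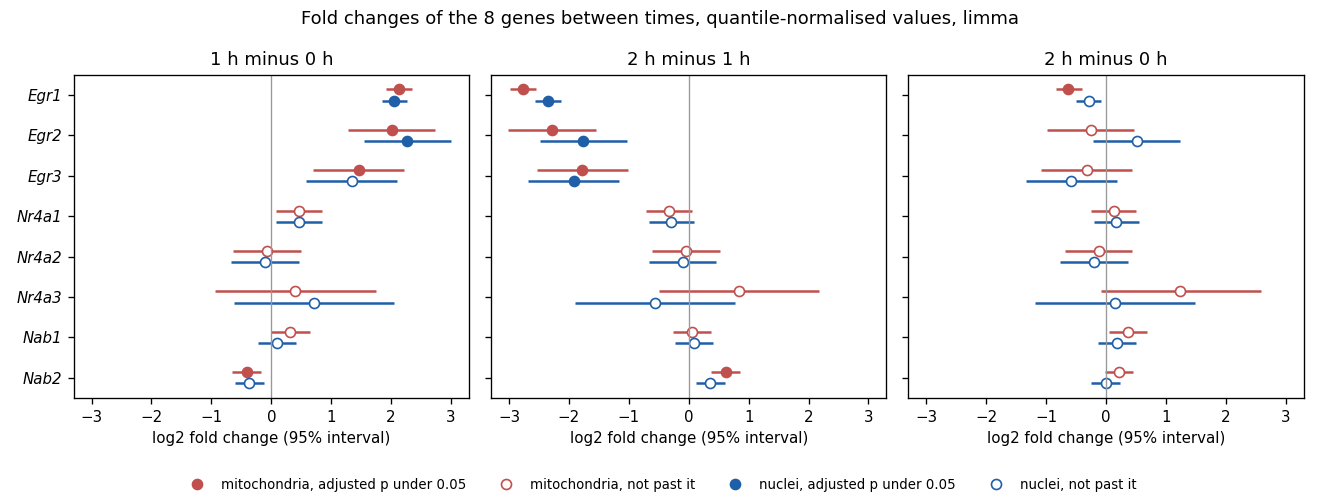
Log2 fold change of each member between times (horizontal axis, with its 95% interval), in mitochondria (red) and nuclei (blue), with filled points where the adjusted p was under 0.05. Egr1 and Egr2 stand near 2 at 1 h in both preparations, Nr4a1 at 0.46, and Nab2 on the other side of 0.

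From 1 h to 2 h, 3 of 8 members were called lower and 1 higher in mitochondria, where 2.12% of all tested genes were lower and 1.61% higher. In nuclei 3 of 8 were lower and none higher, against 1.27% and 1.16%. At 2 h against 0 h only Egr1 passed in mitochondria, where 6.78% of all tested genes were lower and 4.66% higher. In nuclei no member passed at 2 h, against 10.2% of all tested genes in either direction (limma), with 1 of 8 at an unadjusted p under 0.05. The share of all tested genes at that unadjusted p was not read. The deposited scale gave 2 members higher and 3 lower at 1 h in nuclei, where it called 0.508% of all tested genes higher and 48% lower. At 2 h in nuclei it gave 4 members lower (Egr1, Egr3, Nr4a2 and Nab2), against 38.1% of all.

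A ratio of reads within a library does not depend on the scaling between libraries. Egr1 had 0.659 and 0.724 reads per Nab2 read in mitochondria at 0 h, then 4.39 and 4.12 at 1 h, then 0.404 and 0.373 at 2 h. In nuclei the ratios were 0.552 and 0.563, then 3.01 and 2.81, then 0.458 and 0.475. Both 1 h libraries lay above and both 2 h libraries below those of 0 h, in mitochondria and in nuclei. Per Nr4a1 read, Egr1 had 0.948 and 1.05 reads in mitochondria at 0 h, then 3.33 and 3.26 at 1 h, then 0.628 and 0.563 at 2 h. In nuclei these were 1.06 and 0.978, then 3.10 and 2.96, then 0.874 and 0.646. The shift of Egr1 against a second early response gene thus has the same order in both preparations, as values with no test. The genes differ in length, so the ratios compare libraries and not the levels of the genes.

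**Figure D3:**
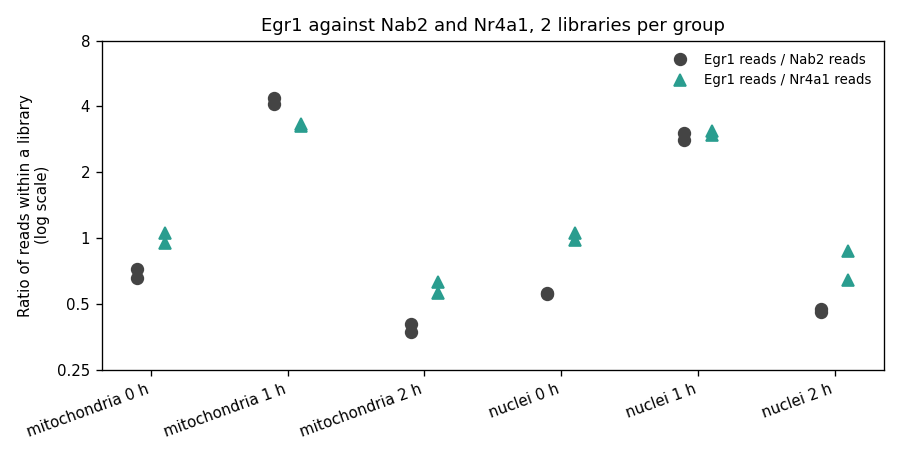
Reads of Egr1 divided by reads of Nab2 (circles) or of Nr4a1 (triangles) in each library, on a log axis, for the 6 groups of 2 libraries. The 1 h libraries lie between 2.81 and 4.39, and all others at or below 1.06.

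The authors' transcript table, in FPKM and so per length, was read for 11 libraries and listed an Egr1 and a Nab2 transcript and none of the other 6 genes. The Egr1 transcript had 1.27 and 1.13 FPKM in mitochondria at 0 h, then 4.37 and 4.29 at 1 h, then 0.571 and 0.627 at 2 h. In nuclei it had 1.21 and 1.25 at 0 h, 2.97 in the 1 library read at 1 h, and 0.693 and 0.690 at 2 h. The Nab2 transcript had 3.26 and 2.30 in mitochondria at 0 h, then 1.67 and 1.25 at 1 h, then 2.44 and 2.81 at 2 h, and in nuclei 3.69 and 3.71, then 1.51, then 2.59 and 2.28. Per length, Nab2 was above Egr1 in each library of 0 h and 2 h and below it in each library of 1 h that was read.

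The preparations were next compared. On the normalized scale no member passed the threshold between mitochondria and nuclei at 0, 1 or 2 h, nor in its 1 h or 2 h effect (limma). At an unadjusted p under 0.05 there were 1, 1, 1, 0 and 1 of 8, and the share of all tested genes at that p was not read. Of all tested genes 1.92%, 3.92% and 2.33% passed between the preparations at 0, 1 and 2 h, and 1.22% and 0.00474% in the effects. Egr1 was 0.33 ± 0.10 higher in mitochondria at 1 h (adjusted p = 0.085), which passed on the deposited scale (0.55, adjusted p = 0.0077) and with median centring (0.52, adjusted p = 0.0035). At 0 h Egr1 was 0.25 ± 0.10 higher (adjusted p = 0.26), and passed with median centring (0.41, adjusted p = 0.0074) but stood at 0.00 on the deposited scale. Its 1 h effect differed by 0.08 ± 0.14 (adjusted p = 0.91, interval -0.22 to 0.38). On the deposited scale that difference in effect was 0.55 (adjusted p = 0.037), beside 0.33 for the median gene and 7.85% of all tested genes called. The intervals of the effect differences were wide for Egr2 (-1.29 to 0.77) and Egr3 (-0.96 to 1.20), and narrower for Nab2 (-0.38 to 0.30).

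Other genes of the pathway were read from 7 lists, whose medians stand beside 0.0 for all genes in each comparison. Of 20 other immediate early transcription factor genes, 10 rose and none fell at 1 h in mitochondria (median 0.68). In nuclei 9 rose (median 0.69). Among all tested genes 2.24% and 1.01% were called higher. The deposited scale gave 4 rises and 6 falls in nuclei, where it called 0.508% of all higher and 48% lower. Klf10, a TGF-beta inducible repressor, rose by 1.40 ± 0.09 (adjusted p = 9.9e-06, limma) and 1.46 ± 0.09, and Ier2 by 1.38 ± 0.12 and 1.39 ± 0.12. From 1 h to 2 h, 7 of the 20 fell in mitochondria and 6 in nuclei, and 2 rose in each. The shares of all tested genes were 2.12% and 1.27% lower, and 1.61% and 1.16% higher. With median centring 8 and 7 fell and 1 rose in each, where the shares of all tested genes were not read. Fos, the AP-1 subunit, fell by 1.85 ± 0.21 in mitochondria (adjusted p = 0.001), and Junb by 1.11 ± 0.13 in nuclei. Klf6 fell by 0.68 ± 0.10 in each. Fosl1, another AP-1 gene, had risen by 0.74 ± 0.09 at 1 h in mitochondria (adjusted p = 0.00083). Not all fell back: at 2 h Klf10 was 1.79 ± 0.09 and Atf3, a stress-induced repressor, 3.34 ± 0.26 above 0 h in mitochondria, while Egr1 was below it.

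Of 12 genes that feed back on ERK signalling, Dusp6, an ERK phosphatase, and Errfi1, an EGF receptor inhibitor, rose at 1 h, by 1.23 ± 0.18 (adjusted p = 0.002, limma) and 0.96 ± 0.15 in mitochondria and by 0.91 ± 0.18 and 1.13 ± 0.15 in nuclei. None of the 12 fell in either, and 2.24% and 1.01% of all tested genes were called higher at 1 h. On the deposited scale 2 rose and 1 fell in mitochondria, where it called 0.702% of all tested genes higher and 17.9% lower. In nuclei none rose and 5 fell on that scale, beside 0.508% and 48% of all. From 1 h to 2 h, 5 fell in mitochondria (median -0.63) and 6 in nuclei (median -0.95), Dusp6 by 2.74 ± 0.18 and 2.58 ± 0.18. The shares of all tested genes called lower were 2.12% and 1.27%. Dusp6 was changed from its baseline at 2 h by -1.50 ± 0.18 in mitochondria (adjusted p = 0.00043) and -1.66 ± 0.18 in nuclei (adjusted p = 0.00021). Spry2, a receptor kinase signalling inhibitor, was changed by -1.16 ± 0.16 and -0.89 ± 0.16 (adjusted p = 0.00086 and 0.0039).

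Upstream genes were read at 1 h beside the shares of all tested genes, 2.24% higher and 3.74% lower in mitochondria and 1.01% and 0.816% in nuclei. Of 15 tested genes of serum response factor, its partners, CREB and MEF2, Mef2c rose in mitochondria (0.42 ± 0.11, adjusted p = 0.045, limma), and in nuclei Srf rose (0.51 ± 0.10, adjusted p = 0.026) and Creb1 fell by 0.59 ± 0.12 (adjusted p = 0.035), with medians of -0.00 and 0.07. Of 14 ERK cascade kinase genes, Nras rose in mitochondria (0.31 ± 0.07, adjusted p = 0.02) and none passed in nuclei. Of 11 tested partners and corepressors, Ddx20, which binds Egr2 and represses, rose in mitochondria (0.45 ± 0.11, adjusted p = 0.033) and none passed in nuclei. The deposited scale turned these counts to 0 higher and 6, 4 and 3 lower in mitochondria, where it called 0.702% of all tested genes higher and 17.9% lower. In nuclei it gave 0 higher and 14, 14 and 10 lower, where it called 48% of all lower. Median centring gave 3 higher and 1 lower of the first list in nuclei, and 2 and 1 higher of the others, where the shares of all tested genes were not read. At 2 h against 0 h Rcor1, a corepressor of the CoREST complex, fell by 0.40 ± 0.09 in mitochondria (adjusted p = 0.016, limma) and by 0.41 ± 0.09 in nuclei, and Sp1, which binds GC-rich promoters, rose by 0.41 ± 0.10 and 0.42 ± 0.10. In nuclei Rps6ka2, an ERK-activated kinase gene, rose by 0.79 ± 0.14 at 2 h (adjusted p = 0.0036). Braf, of the same list, was called lower there (-0.42 ± 0.11, adjusted p = 0.036, limma). So was Kdm1a of the partners and corepressors (-0.38 ± 0.10, adjusted p = 0.027). None of the partners, corepressors and ERK cascade kinases was called higher at 2 h on the deposited scale, Sp1 and Rps6ka2 included.

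Genes reported elsewhere as targets moved in both directions. Of 18 reported Egr targets, 1 rose (Pdgfa) and 5 fell at 1 h in mitochondria (median 0.05), against 2.24% and 3.74% of all tested genes. Mmp14, a membrane metalloprotease, stood at -0.63 ± 0.07 (adjusted p = 0.00034, limma) and Tgfb1 at -0.65 ± 0.11 (adjusted p = 0.0052). The deposited scale gave no rise and 6 falls, where it called 0.702% of all tested genes higher and 17.9% lower. In nuclei 1 rose, Fn1 (0.50 ± 0.09, adjusted p = 0.024), and none fell, against 1.01% and 0.816% of all tested genes. On the deposited scale none rose and 11 fell there, where 0.508% of all were called higher and 48% lower. From 1 h to 2 h the clotting starter F3 fell by 1.03 ± 0.15 in mitochondria (adjusted p = 0.0036) and its nuclear change was -1.05 ± 0.15 (adjusted p = 0.0038). Pmp22, a myelin protein gene, rose by 0.45 ± 0.08 and 0.41 ± 0.08. Thbs1, the thrombospondin 1 gene, was called lower in mitochondria at 1 h (-0.36 ± 0.07) and 2 h (-0.75 ± 0.07, adjusted p = 7.5e-05) and in nuclei at 2 h (-0.42 ± 0.07, adjusted p = 0.003), against 0 h in each case. At 2 h 2 rose and 4 fell in mitochondria, where 4.66% of all tested genes were higher and 6.78% lower. In nuclei 3 rose and 4 fell, where 10.2% of all passed in either direction. Deposited values gave 1 rise in each preparation at 2 h, with 8 falls in mitochondria and 12 in nuclei. On that scale 5377 of 21078 genes were called lower in mitochondria and 38.1% in nuclei. Of 10 reported Nr4a targets 6 could be tested. Spp1 fell at 1 h in mitochondria (-0.67 ± 0.08, adjusted p = 0.00044, limma), where 3.74% of all tested genes were lower. At 2 h 2 of the 6, Spp1 (-0.49 ± 0.08, adjusted p = 0.0021) and Eno3 (-0.43 ± 0.11, adjusted p = 0.028), fell there, against 6.78% of all. Deposited values and median centring each gave 3 falls at 2 h in mitochondria. None passed in nuclei at 1 h or 2 h. Deposited values gave 3 falls at each time there, where they called 48% and 38.1% of all tested genes lower. Median centring gave 1 rise at 1 h in nuclei. The shares of all tested genes with median centring were not read.

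For members above the median gene level, genes of like course were ranked by the root-mean-square difference of their normalized log2 values over the 12 libraries, each gene centred on its own mean, among 9793 genes. For Egr1, whose own values spread by 1.12 around their mean, the closest were Egr3 and Fosb (0.49 each), Dusp6 (0.53), Fos (0.58) and Ier3 (0.62). For Egr3 they were Dusp4 (0.44), Fos (0.45), Fosb (0.46), Egr1 (0.49) and Hes1 (0.51). Nab2, which spread by 0.23, was closest to Tnfrsf1b and Snrk (0.11 each), Zfp629, Cdca7 and Ero1l (0.12 each). For Nr4a1, spread 0.27, Rfng (0.10) came first, followed by Lmx1b, Spag7, Impa2 and Bcl2l1 at 0.15 to 0.16. For Nr4a2, spread 0.27, they were Trmt2b (0.15), Lrp4, Pfdn4, Snap29 and Rnaseh2a (0.16 each), and for Nab1, spread 0.19, Gtf2f2, Mfn2, Ddx42, Acd and Polr3f (0.10 each). None of the 8 members was among the 5 closest of Nr4a1, Nr4a2, Nab1 or Nab2. Egr2 and Nr4a3 lay below the median gene, so they were neither ranked nor open as neighbours. The difference is not scaled by spread. Egr1 and Egr3, which spread by 1.12 and 0.87, could therefore not come close to genes that spread by 0.19 to 0.27. The values share libraries and depth, so likeness is a description.

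**Figure D4:**
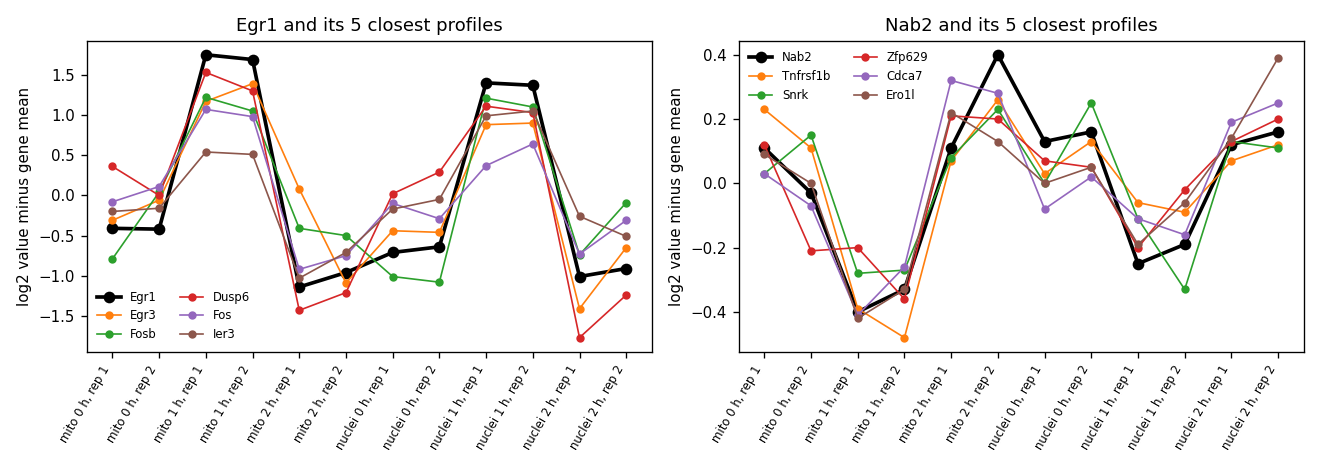
Normalized log2 value minus the gene's mean (vertical axis) in the 12 libraries for Egr1 (left, black) and Nab2 (right, black) with the 5 genes closest to each in coloured lines, mito standing for mitochondria and rep for replicate. The vertical scales differ: Egr1 spreads by 1.12 around its mean and Nab2 by 0.23, with opposite 1 h values.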

How the data were processed

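RNA was measured in 12 libraries, 2 for each of 6 groups of preparation and time. The authors deposited a SeqMonk gene table of log2 values, per the file headers, which were log2 RPM, scaled to all reads of a library; taking a library's lowest value as 0.9 read turned 99.994% to 100.0% of values into whole reads within 0.05 read. These recovered reads are what is printed as reads, and they were not used in a test. A deposited transcript table holds FPKM values by the authors, per the file headers, and was read for 11 libraries. HISAT2, StringTie and edgeR are named with GRCm38 and mm10 in the submitters' processing notes, without versions, roles or settings. Strand, and whether introns were counted, are not given in the sources used here. Of 35373 entries 52 repeats were left out. Values were quantile normalized, and genes that exceeded the floor in 2 or more libraries were fitted in limma 3.58.1 (R 4.3.3) with 6 group means, a variance trend and robust moderation, over all 12 libraries. The test was tried on simulated data, which held neither libraries that stand apart nor a shift of the median gene. That trial therefore does not bear on how these features affect the calls. Adjusted p is Benjamini-Hochberg over 21078 genes, in each of 11 contrasts. Errors after ± are limma standard errors, and intervals are 95%. Coordinates are those of the files, on GRCm38. The text names all 8 members, examples of 7 lists taken from the 3 genes of smallest p per time comparison (not all are named; Pdgfa stands outside that rule and was chosen after its values were seen), and the 5 closest profiles of members above the median gene. The members, lists and alternatives were chosen with earlier results of these data known. The 20 alternatives covered scaling, filters, moderation, the 4 libraries that stand apart, the replicate block and each library left out.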

Additional observations from a re-analysis of the deposited data

How the results depend on the processing

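The count of the 8 members called was recomputed under 20 alternatives. In the 8 libraries without the 4 that stand apart no member kept its call, but 0 and 1 h keep 1 library each there. That fit has too few libraries for the loss of calls to be read as a result about these members. In it Egr1 differed from 1 h to 2 h by -2.74 ± 0.13 in mitochondria and -2.33 ± 0.13 in nuclei. Without the filter on low values the count was 2 for mitochondria at 1 h (4 as reported). Without variance trend and robust moderation the count was 2 for mitochondria 1 h against 0 h and 2 for 2 h against 1 h (4 as reported for each). On the deposited scale the count was 5 for nuclei at 1 h (2 as reported), where 0.508% of all tested genes were called higher and 48% lower. It was 4 for nuclei at 2 h (0 as reported), all lower, beside 38.1% of all. It was 1 for the preparations at 1 h, where 1512 of 21078 genes were called higher and 240 lower. For the 1 h effect it was 1, beside 7.85% of all (0 as reported for both). With median centring the count was 1 for nuclei at 2 h and 1 for the preparations at 0 h and at 1 h. With median centring, the other filters, the moderation setting or a library left out, no share of all tested genes was read beside the count. Leaving out each library in turn gave 2 to 4 for mitochondria at 1 h, 1 to 1 at 2 h and 2 to 4 from 1 h to 2 h, and 1 to 3, 0 to 0 and 1 to 3 for nuclei; 0 for the preparations and the effects. Beyond the scale itself, the cause was not tested. The split term kept the member counts within 1.5 times those reported. For single members and comparisons, 1693 values under the alternatives stayed on their side of the threshold, 77 of them uncalled values whose sign turned. Another 52 fell short of the threshold, 14 came to pass it, and 1 passed with the other sign, Nab1 in nuclei at 1 h, at -0.61 on the deposited scale. Egr1 kept its calls in 19 of 20 alternatives in each comparison where it passed, and lost them in the 8 libraries alone.

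With the replicate number as a replicate block, 4 of 8 became 3 of 8 for mitochondria at 1 h, since Nab2 stood at -0.41 with adjusted p = 0.054 (limma). No other member changed its side of the threshold. Over 15 pairs of groups, replicate deviations correlated from -0.21 to 0.23, and 3 of them over 0.1. Those 3, and the values of -0.21 to -0.17, lie between groups of 0 and 1 h, which hold the 4 libraries that stand apart. The negative values all involve mitochondria at 0 h, where replicate 2 stands apart. Pairs with a 2 h group ran from -0.00 to 0.03. The correlations thus mix with that split and cannot decide whether replicate numbers pair the libraries. The planned count tests by edgeR and DESeq2 were not run, since the deposited values are log2. Depth limits Nr4a3 (4 to 17 reads) and Egr2 (9 to 68 reads) most.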
